A study of Arabidopsis thaliana with 6 samples.

Results

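The genes described are 52 Arabidopsis thaliana loci for protein folding and secretion in the endoplasmic reticulum (ER), grouped by role as chaperones, co-chaperones, lectin chaperones, disulfide enzymes, translocon subunits, oligosaccharyltransferase subunits, degradation factors, bZIP regulators, and a last group of nucleotide sugar transporters and TIN1. A member was any probe whose gene name in the files starts with a listed locus. 51 of the 52 loci had a probe, among 21500 probes on the array that are not controls. The disulfide oxidase ERO2 (AT2G38960) had none and has no values here.

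Each of 6 Agilent arrays compared a labelled plant RNA in the Cy5 channel with a control RNA in the Cy3 channel, and the dyes were never swapped. In 4 arrays the Cy5 RNA came from Columbia plants treated with 5 mM salicylic acid (SA), a hormone of plant defence. Treatment lasted 2, 5, 10 or 24 h, each time had a single array, and the Cy3 RNA came from untreated Columbia plants. In the other 2 arrays the Cy5 RNA came from plants overexpressing SIBA, the gene SIB1 (AT3G56710), named CA32F3 and CA32F4 and called line 1 and line 2 below, and the Cy3 RNA came from vector control plants. All plants were 28 days old and were sampled whole except for the root. The promoter that drives SIBA, the ecotype of the transgenic plants and whether the lines came from separate transformations are not given in the labels. The labels do not say that RNAs came from separate cultures or whether a control RNA was shared, so the p-values below rest on the spread from array to array alone, and this spread may be technical.

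The median Cy5 signal over local background was 21.5 on the 2 h array, 79 in line 1 and 84 in line 2, against 206.5 to 404 on the other SA arrays. SIB1 itself, the check of the labels, had a log2 ratio of 5.25 in line 1, one of 5.59 in line 2, and ratios of 4.46, 3.71 and 2.89 after 2, 5 and 10 h of SA, while its spot was marked as an outlier at 24 h. Of 4 shoot markers, RBCS1A and CAB2 were near the scanner's ceiling on most arrays, so their sum measures little. The net Cy5 signal was 371 to 1275 for LHCB2.2 and 5261 to 12855 for CA1. The summed net Cy5 signals were 26.2 to 965 for 4 root markers, 28.7 to 692 for 4 flower markers and 39.7 to 351.5 for 6 seed markers, and SESA1, SESA2, SESA3, CRU3, CRA1 and OLEO1 of the seed list never exceeded a net signal of 91 in either channel.

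Proteins bound for secretion enter the ER through the Sec61 channel, receive N-linked sugars from oligosaccharyltransferase, and fold with the help of BiP, calnexin, calreticulin and protein disulfide isomerases. Proteins that fail to fold are sent back to the cytosol for degradation. When folding demand exceeds capacity, the unfolded protein response raises these genes: the kinase and nuclease IRE1 splices the bZIP60 transcript, and bZIP17 and bZIP28 are membrane-anchored factors released by proteolysis. In Arabidopsis, genes of the secretory pathway are known to be induced during SA-dependent defence, in which pathogenesis-related proteins are secreted. The position of the BZIP60 probe in the transcript was not checked, so its values cannot be assigned to the spliced or unspliced form.

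All ratios below are log2 of Cy5 over Cy3, so 1 is a 2-fold higher and -1 a 2-fold lower signal in the SA-treated or overexpressing plant. The members' median ratio was -0.01, 0.63, 1.23 and 0.42 over the 4 times of SA in turn (2, 5, 10 and 24 h). It was 0.02 in line 1 and 0.03 in line 2. The median was highest at 10 h. At 2 h it lay near 0 while single members ranged from -2.64 to 2.43, and in the lines it depended on the centring, as given below. The median of all probes lay between -0.01 and 0.02 over the arrays. At 10 h, 28 of 51 members were at least 2-fold higher in SA-treated plants, which is 54.9% of them, beside 7.3% of all probes. At 5 h 17 of 51 were 2-fold higher (33.3%, beside 6.09% of all probes), and at 24 h 11 of 48 were (22.9%, beside 5.31%). At 2 h only BZIP60 was 2-fold higher (1.96%, beside 3.84%) and 6 members were 2-fold lower (11.8%, beside 2.31%). These 2 h counts depend on the scaling: with the scanner software's ratio 6 were higher and 12 lower, and with median centring 5 were higher and 1 lower, with a median of 0.09. No member was 2-fold lower at 5 h (beside 3.66% of all probes) or 10 h (beside 4.43%), and 2 were at 24 h (4.17%, beside 5.63%). With 1 array per time, these counts have no replicate check. Shoot markers were below 0 at 10 h and in line 2 where they could be measured. CA1, a chloroplast carbonic anhydrase, had -0.08, -0.18, -1.88 and -1.31 over the SA times and -0.22 and -1.16 in the lines. LHCB2.2, a light-harvesting protein, had 0.09, -0.29, -0.47 and -0.03 over the SA times and -0.30 and -1.20 in the lines. CAB2 was -0.83 at 10 h with its untreated signal near the ceiling, and RBCS1A was near it in both channels there. The part of these markers in the members' ratios was not tested. In whole shoots, more RNA per cell and more cells of a type that holds the RNA cannot be told apart.

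**Figure D1:**
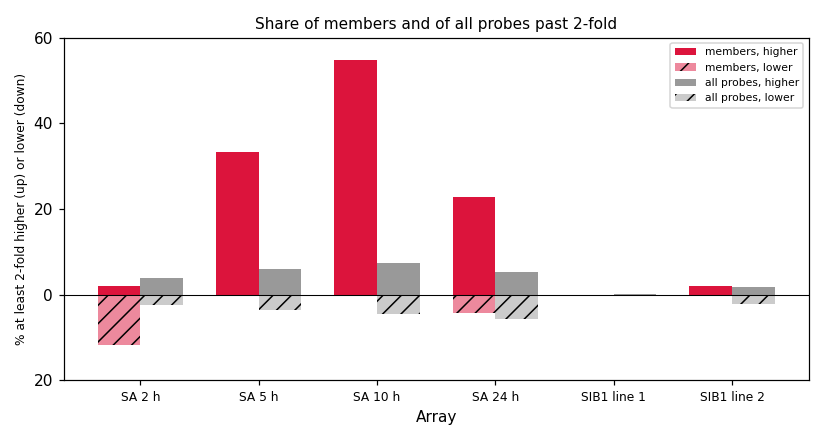
Percent of members (red) and of all probes (grey) at least 2-fold higher (upward bars) or lower (hatched, downward bars) on each array. The members' share of higher probes was 54.9% at 10 h of SA, against 7.3% of all probes, and 0 and 1.96% in lines 1 and 2.

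Of the 48 members with values on all 4 SA arrays, 38 had their highest ratio at 10 h. Another 5 peaked at 5 h, 5 were highest at 24 h, and for 0 the 2 h value was the highest. Among all probes with 4 values, 29.7% were highest at 10 h. A ratio below 0 at 2 h followed by ratios above 0 at 5, 10 and 24 h occurred in 17 of these members, and in 6.9% of all such probes. Among the 17, UTR3, PDIL2-2 and STT3B had 2 h ratios of only -0.006, -0.013 and -0.015. With the scanner software's ratio PDIL2-2 was 0.37 at 2 h. This count was not taken with other scalings. The ratio at 10 h exceeded that at 24 h in 42 of the 48 members and that at 5 h in 43. For these pairwise counts the share over all probes was not taken.

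**Figure D2:**
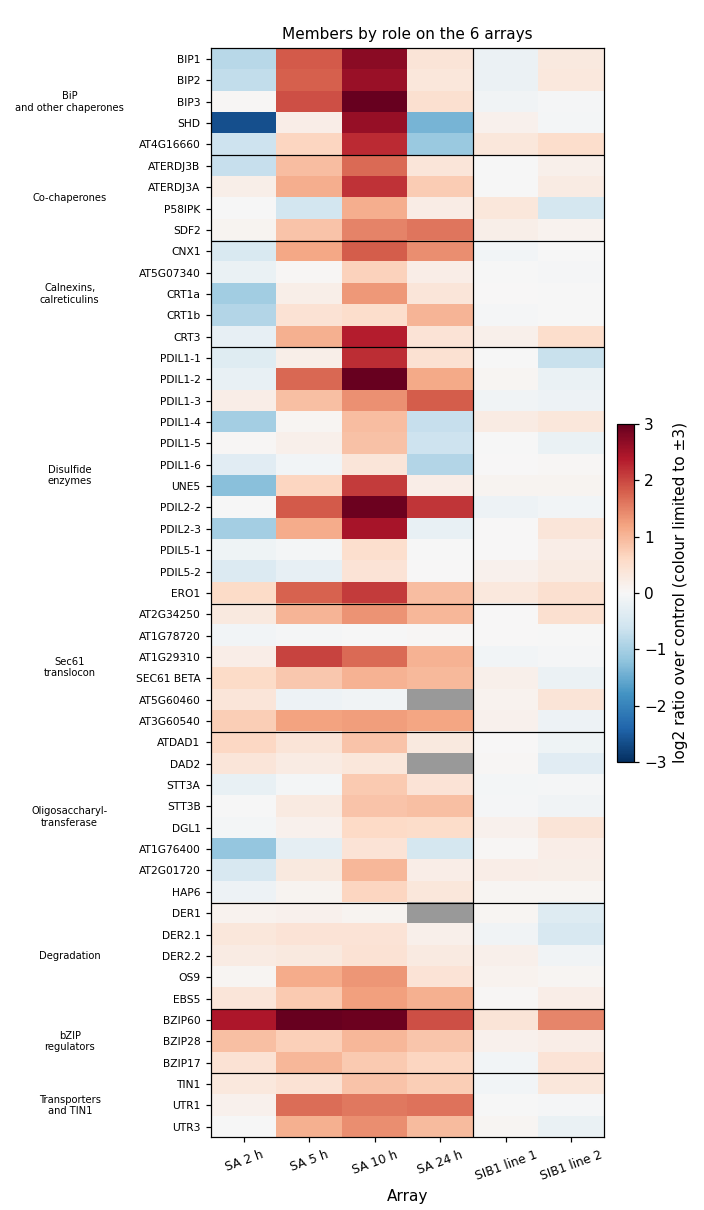
Log2 ratio of each member (rows, grouped by role) on the 4 SA arrays and the 2 SIB1 overexpressor arrays. Red is higher and blue lower in the SA-treated or overexpressing plant, grey has no value, and the reddest column is SA at 10 h, where 49 of 51 members were above 0.

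The 3 bZIP regulators were higher at every time of SA. BZIP60 had ratios of 2.43, 3.79, 2.94 and 1.94 over the SA times, given here and below from 2 to 24 h, and of 0.38 in line 1 and 1.46 in line 2. It was already high at 2 h and highest at 5 h, and line 2 stood above line 1. BZIP28 had 0.90, 0.72, 0.999 and 0.84 over the SA times and 0.13 and 0.21 in the lines. BZIP17 had 0.43, 1.0, 0.78 and 0.65 over the SA times and -0.07 and 0.41 in the lines. BZIP28 varied little between times, with an SD of 0.116, and no time stood apart.

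The chaperones of the ER lumen lay on both sides of their controls over time. BiP is the ER form of the HSP70 chaperone, which holds unfolded chains, and Arabidopsis has 3 genes for it. BIP1 had ratios of -0.83, 1.85, 2.70 and 0.40 over the SA times, and -0.18 and 0.29 in the lines. BIP2 followed with -0.74, 1.79, 2.58 and 0.33 over the SA times and -0.18 and 0.31 in the lines. The probes of BIP1 and BIP2 never differed by more than 0.118, and since the genes are near-identical, the probes may read both. BIP3, a form known mainly from ER stress, had 0.03, 1.93, 4.39 and 0.49 over the SA times, and -0.10 and -0.04 in the lines. Its 10 h value stood at percentile 99.9 of all probes. Its net signals were 7.5, 184, 2977 and 172 in SA-treated plants at 2, 5, 10 and 24 h, against 45.7, 17.9, 61 and 80 in untreated plants. At 5 h the untreated signal was not well above background, and the level was at least 3.68-fold higher in SA-treated plants. The scanner software's own log2 ratio there was 4.55, against the 1.93 given above.

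SHD (SHEPHERD, the plant GRP94, which folds among others CLAVATA receptors) had ratios of -2.64, 0.20, 2.61 and -1.39 over the SA times, and 0.13 and -0.06 in the lines. Its net signals were 140, 394, 6927 and 1975 in SA-treated plants against 793, 290, 656 and 2735 in untreated plants. Net signals are not normalized between the dyes. By its normalized ratios SHD was at least 2-fold lower at 2 and 24 h and 2-fold higher at 10 h. With median centring its 24 h ratio was -1.005, just past the 2-fold threshold. At 2 h SHD stood at percentile 0.0093 of all probes. AT4G16660, described in the files as a putative HSP70, had -0.62, 0.63, 2.24 and -1.11 over the SA times and 0.33 and 0.54 in the lines. All 5 chaperones were 2-fold higher at 10 h and 0 of 5 at 24 h, where SHD and AT4G16660 were 2-fold lower.

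Co-chaperones stimulate or steer BiP. ATERDJ3A (TMS1), a J-domain protein, had 0.18, 1.10, 2.17 and 0.76 over the SA times and 0.00 and 0.24 in the lines. Its net signals in the lines were 18.3 and 44.3, against 28.8 and 31.2 in vector controls, so the offset pulls these ratios towards 0 too. ATERDJ3B, another J-domain protein, had -0.69, 0.94, 1.69 and 0.37, with 0.00 and 0.16 in the lines. SDF2, which acts with ERdj3B, had 0.08, 0.87, 1.49 and 1.60, with 0.18 and 0.10 in the lines. ATERDJ3A and ATERDJ3B were highest at 10 h, whereas SDF2 was highest at 24 h. P58IPK had -0.01, -0.55, 1.10 and 0.22, with 0.34 and -0.53 in the lines. Its SA-treated signal was saturated at 10 h, so that it was at least 2.14-fold higher there, and was close to that level at 24 h. All 4 were 2-fold higher at 10 h.

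**Figure D3:**
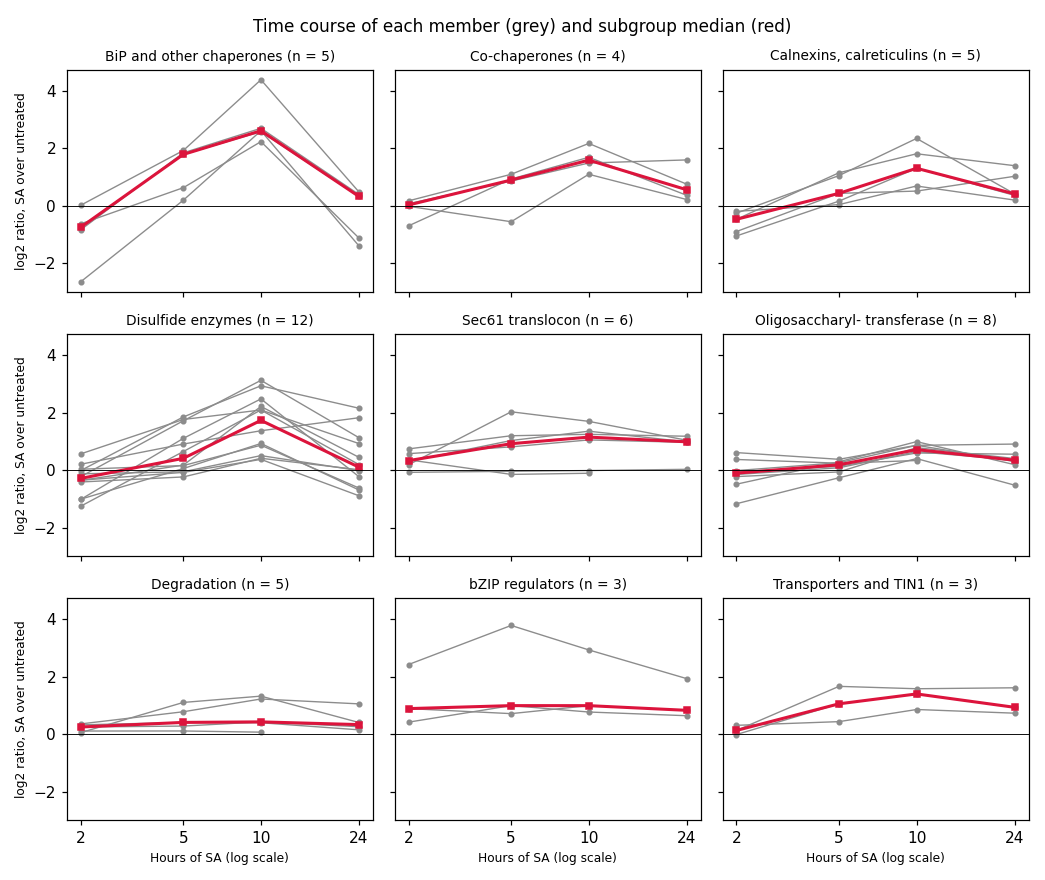
Log2 ratio of SA-treated over untreated plants against hours of SA (log scale), for each member (grey) and the median of each role (red). The chaperones' median was 2.61 at 10 h and -0.74 at 2 h, while the oligosaccharyltransferase median did not exceed 0.71.

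Calnexin and calreticulin are lectins that hold glycoproteins until they are folded. CNX1 had -0.46, 1.15, 1.81 and 1.40 over the SA times and -0.08 and 0.00 in the lines. The second calnexin, AT5G07340, had -0.19, 0.05, 0.69 and 0.20 over the SA times and -0.01 and -0.03 in the lines. CNX1 lay above AT5G07340 by 1.11, 1.12 and 1.20 at 5, 10 and 24 h. CRT1a had -1.04, 0.17, 1.31 and 0.37 over the SA times and 0.00 and -0.02 in the lines. CRT1b had -0.89, 0.44, 0.52 and 1.03 over the SA times and -0.04 and -0.02 in the lines. CRT1a was highest at 10 h and CRT1b at 24 h. CRT3, the calreticulin known for quality control of the immune receptor EFR, had -0.25, 1.06, 2.35 and 0.42 over the SA times and 0.16 and 0.53 in the lines. All 5 were below 0 at 2 h, and 3 of 5 were 2-fold higher at 10 h.

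Among 12 disulfide enzymes, 7 were 2-fold higher at 10 h and all 12 were above 0 there. The largest were the isomerases PDIL1-2, with -0.22, 1.72, 3.12 and 1.13 over the SA times and 0.05 and -0.20 in the lines, and PDIL2-2, with -0.01, 1.85, 2.93 and 2.15 and -0.15 and -0.07 in the lines. PDIL2-3 had -1.02, 1.11, 2.48 and -0.23 over the SA times, and 0.02 and 0.36 in the lines. PDIL2-2 stayed 2-fold higher at 24 h, when it exceeded PDIL2-3 by 2.38. PDIL1-1 had -0.36, 0.18, 2.22 and 0.45 over the SA times and -0.01 and -0.66 in the lines. UNE5 (PDIL2-1) had -1.25, 0.65, 2.09 and 0.19 over the SA times and 0.08 and 0.07 in the lines. These 2 isomerases were 2-fold higher at 10 h and at no other time. ERO1, the oxidase that recharges the isomerases, had 0.57, 1.76, 2.09 and 0.92 over the SA times and 0.32 and 0.49 in the lines. PDIL1-3 was highest at 24 h, with 0.21, 0.91, 1.37 and 1.82. The other 5, PDIL1-4, PDIL1-5, PDIL1-6, PDIL5-1 and PDIL5-2, lay between 0.37 and 0.93 at 10 h, and PDIL1-4 was -1.01 at 2 h.

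The Sec61 translocon is the channel through which chains enter the ER. At 2 h 5 of its 6 members were above 0. AT3G60540, a Sec61 beta family protein, had 0.74, 1.20, 1.25 and 1.18 over the SA times and 0.13 and -0.16 in the lines. SEC61 BETA had 0.57, 0.81, 1.05 and 0.97 over the SA times and 0.14 and -0.17 in the lines. Both were nearly level after 2 h. Of the Sec61 alpha genes, AT1G29310 had 0.19, 2.03, 1.70 and 1.04 and AT2G34250 had 0.30, 1.03, 1.35 and 0.99 over the SA times, with AT1G29310 highest at 5 h. The description of AT1G29310 differs between the files, one of which calls it a flower pigmentation protein. AT1G78720 stayed between -0.08 and 0.03 on all 6 arrays, with net signals of at most 50. Its untreated signal was not well above background at 10 and 24 h. Such dim signals are pulled towards 0 by the background offset of 50, so its response could not be measured. AT5G60460 had 0.36, -0.15 and -0.11 at 2, 5 and 10 h.

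Oligosaccharyltransferase, which attaches the N-linked sugars, had lower ratios at 10 h than the chaperones. None of its 8 members was 2-fold higher on any array, although all 8 lay above 0 at 10 h, between 0.34 and 0.99. The highest was AT2G01720, a ribophorin I, with -0.49, 0.29, 0.99 and 0.19 over the SA times. The other ribophorin I, AT1G76400, had -1.17, -0.26, 0.40 and -0.52. STT3B, a catalytic subunit, had -0.02, 0.26, 0.86 and 0.91, and STT3A, the other catalytic subunit, had -0.22, -0.06, 0.78 and 0.40. ATDAD1, a small subunit, had 0.61, 0.38, 0.87 and 0.30. DAD2, DGL1 and HAP6 lay between 0.34 and 0.64 at 10 h.

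Among 5 degradation factors, all were above 0 at each SA time at which they had a value. OS9, a lectin that selects misfolded glycoproteins, had 0.06, 1.11, 1.33 and 0.41 over the SA times. EBS5 (HRD3A), a partner of the Hrd1 ligase, had 0.36, 0.79, 1.23 and 1.06. These 2 were 2-fold higher at 10 h. DER1, DER2.1 and DER2.2, of the derlin family, lay between 0.08 and 0.43 on the SA arrays. Of the last group, the nucleotide sugar transporters UTR1 and UTR3 had 0.14, 1.67, 1.59 and 1.62, and -0.01, 1.06, 1.41 and 0.94. TIN1, a gene known from tunicamycin treatment, had 0.31, 0.44, 0.86 and 0.74.

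The mean over the 4 SA times was tested against 0 with limma, where the spread between times is the error, and members were called at a 2-fold mean change with an adjusted p under 0.05. The test called 2 of 51 members higher, BZIP60 and AT3G60540, and 0 lower, beside 2.8% of all probes called higher and 0.954% called lower. The members' share called higher lay near that of all probes. BZIP60 rose with a mean of 2.77 ± 0.790 (SD, n = 4; adjusted p = 0.0227). AT3G60540 rose with a mean of 1.09 ± 0.236 (SD, n = 4; adjusted p = 0.0193). Both were above 0 on 4 of 4 arrays. Another 4 members had an adjusted p under 0.05 with a mean below 2-fold: BZIP28 (0.86, adjusted p = 0.0166), BZIP17 (0.71, 0.0346), SEC61 BETA (0.85, 0.0242) and EBS5 (0.86, 0.0466). In all, 6 of 51 members had a limma adjusted p under 0.05, beside 1670 of 21280 probes. At an unadjusted p under 0.05 the fit held 23 members, or 45.1%, beside 26% of all probes in either direction. All 23 were higher, as were 3162 of 21280 probes at that p. The median of the members' means was 0.58, beside -0.01 for all probes, and 45 of 51 were above 0. Without the 5, 10 or 24 h array 0 members were called, and of all probes 0, 0 and 154. Without the 2 h array 11 members and 819 of all probes were called. In the 3 sets without a call the mean of BZIP60 was 2.43 to 3.05 and that of AT3G60540 was 1.04 to 1.06.

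Several chaperones with large ratios at 10 h missed this test. BIP3 had a mean of 1.71 ± 1.96 (SD, n = 4; limma, adjusted p = 0.256) and BIP1 one of 1.03 ± 1.56 (adjusted p = 0.380). SHD had a mean of -0.30 ± 2.26 (SD, n = 4; limma, adjusted p = 0.873). The spread between times exceeded the mean in each. ERO1 had a mean of 1.34 ± 0.710 (SD, n = 4; limma, adjusted p = 0.0622). A straight slope on log2 of hours called 0 members and 0% of all probes with limma, while 5 members, or 9.80%, beside 4.61% of all probes, had an unadjusted p under 0.05. All 5 had a slope above 0, as had 514 of 21280 probes at that p.

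In the overexpressors, the mean of both lines against 0 called 0 of 51 members and 0% of all probes with limma, and 4 members had an unadjusted p under 0.05 (7.84%, beside 4.63%). All 4 were higher, as were 618 of 21482 probes at that p. No other tool was run. SIB1 itself was not called in this fit, which has 2 arrays. In line 1 the members lay between -0.18 and 0.38, with 0 of them 2-fold higher (beside 0.191% of all probes) or lower (beside 0.0838%). In line 2 they lay between -0.66 and 1.46, with BZIP60 alone 2-fold higher (1.96%, beside 1.88% of all probes) and 0 lower (beside 2.26%). In both lines together 0 were 2-fold higher (beside 0.107%) or lower (beside 0.0512%). 20 members were above 0 in both lines, 13 below 0 in both, and 18 had opposite signs. The same split over all probes was not taken, so these counts are description only. The largest means were those of BZIP60, 0.92 ± 0.766, AT4G16660, 0.43 ± 0.148, and ERO1, 0.40 ± 0.122 (SD, n = 2; limma, adjusted p = 0.664 for each). With median centring in place of loess, BZIP60 was called (mean 1.56; limma, adjusted p = 0.04275) and the members' median was 0.49 in line 1 and 0.59 in line 2, so the level of the members in the lines depends on the centring.

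**Figure D4:**
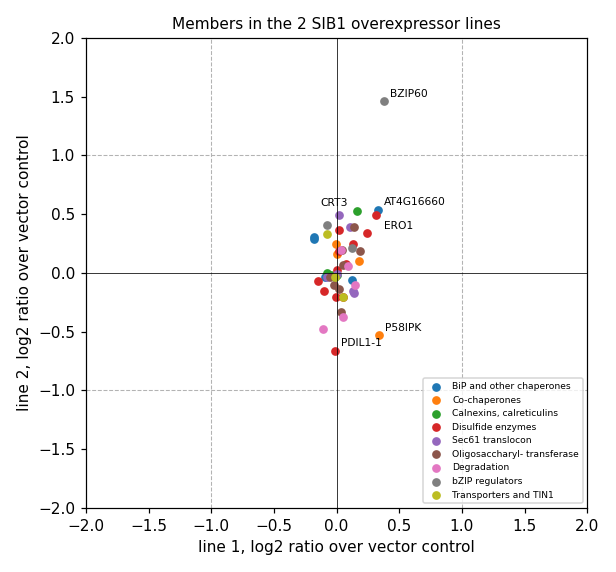
Log2 ratio over vector control in line 2 (vertical) against line 1 (horizontal) for the 51 members, coloured by role, with dashed lines at 2-fold. BZIP60 is the only member past 2-fold, in line 2, and the points otherwise lie between -0.66 and 0.54.

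The difference of the SA mean minus the overexpressor mean, tested over all 6 arrays, called 0 of 51 members with limma, beside 0.0605% of all probes called higher and 0.00466% lower. At an unadjusted p under 0.05 there were 13 members (25.5%, beside 12.2% of all probes in either direction). All 13 were higher with SA, as were 1653 of 21482 probes at that p. The smallest adjusted p was 0.1245, for BZIP28, whose difference was 0.69. The array files differ in their columns: those of the 2 h SA array and of both lines hold spatial detrending columns, and those of the 5, 10 and 24 h arrays do not. The 2 h file and the files of the lines still differ in other columns, with 100 against 105 in all. The members' median difference was 0.54 over all arrays. It was -0.01 with the presence of these columns as a block. That fit sets the 2 h array against the lines. The arrays that have the columns, where SA is the 2 h array alone, therefore gave the same -0.01 by construction. The 2 h time and the detrending columns cannot be told apart among the SA arrays.

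Other genes of the pathway were taken from 3 further lists. For comparison, 2.8% of all probes were called higher and 0.954% lower in the SA mean. At 10 h, 7.3% of all probes were 2-fold higher. Of 10 genes of unfolded protein response signalling, 1 was called higher in the SA mean and 0 lower with limma. This was BI1, the cell death suppressor Bax inhibitor-1, with 1.09, 1.23, 1.71 and 1.07 over the SA times (mean 1.27, adjusted p = 0.0201). At 10 h 5 of the 10 were 2-fold higher, among them the transcription factor NAC062, with 1.54, 1.61, 2.11 and 0.39, and the sensor IRE1A, with 0.17, 0.83, 1.29 and -0.26. Of 12 other quality control genes 0 were called. UBC32, a ubiquitin-conjugating enzyme, had a limma adjusted p of 0.0363 with a mean of 0.80. At 10 h 1 of the 12 was 2-fold higher, near the share of all probes. That was CDC48, the ATPase that extracts proteins from the ER membrane, with 0.04, 0.51, 1.50 and 1.09. RSW3, a glucosidase II subunit, had -1.13, -0.29, 0.22 and -0.19, and AT4G29960 had 0.41, 0.33, 0.95 and 1.16. Of 7 further secretion genes 1 was called higher, AT4G24920, with 1.45, 1.65, 1.87 and 1.59 over the SA times (mean 1.64; limma, adjusted p = 0.0120). AT5G50460 had 0.54, 0.68, 1.21 and 0.89, and STL2P had 0.18, 0.59, 0.82 and 0.55. The medians of the 3 lists at 10 h were 0.62, 0.49 and 0.58, against the members' 1.23. Members and lists were chosen with earlier results of these data known, so this contrast is description only.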

How the data were processed

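The members, their roles and the further lists were chosen with earlier results of these data known. The authors deposited scanner output which, per the file headers, comes from Agilent Feature Extraction and gives for both channels the mean intensity of a spot, its median local background intensity, marks of quality and a dye-normalized log10 ratio (Cy5 over Cy3). Which version and settings were used is stated in no source here. The deposited series table holds the authors' linear ratio per probe, normalized in a way that no label or header states. From the deposited intensities, log2 ratios were computed with limma 3.58.1 in R 4.3.3: normexp background correction with an offset of 50, which pulls ratios of dim spots towards 0, then loess within each array. Control and outlier-marked spots were left out. These were 10 to 25 spots on each array except that at 24 h, where 1722 spots (8.01%) and 3 members (AT5G60460, DAD2 and DER1) had no value and the fit used 3 arrays.

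Tests used limma's lmFit and eBayes over all probes, with Benjamini-Hochberg adjustment, and kept probes with a signal well above background, in either channel, on 2 or more arrays. Testing a ratio against 0 does not include the spread of the controls. The method was tested on simulated data with independent noise. Simulated SA changes were equal at all times or linear in log2 of hours. Ratios that swing between times were not covered. A bound uses the lowest signal well above background, with quantile-normalized brightness, and is open to dye bias. Described by array were all called members, the 4 members of each role with the largest ratio at any SA time, the 3 with the largest overexpressor means, the bZIPs, the BiPs, and the 3 genes of each further list with the largest ratio at any SA time. Names came from a RefSeq gene table, in which all 52 loci were found, and from the files. No genome build is named in the files, and coordinates are left out. Alternatives changed the offset, the ratio's source, the centring, the filters, the variance model and the arrays used. Figures were drawn with Python 3.11.15 and matplotlib 3.10.9.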

Additional observations from a re-analysis of the deposited data

How the results depend on the processing

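The counts of members 2-fold higher at 5, 10 and 24 h kept within 1.5 times in every alternative run: 16 to 20 at 5 h, 28 to 35 at 10 h and 11 to 16 at 24 h. The 2 members called in the SA mean (799 of all probes) became 5 with an offset of 16 (1264), 6 with the scanner software's ratio (1386), 8 with median centring (1126) and 5 with the authors' ratio table (1425), and 0 to 11 when 1 array was left out (0 to 819). The overexpressor mean called 1 member with median centring (412 of all probes), against 0 (0). The difference between SA and the overexpressors called 0 or 1 members when 1 array was left out; the 1, without the 2 h array, was UTR1. On the dim 2 h array the members 2-fold higher were 1 (826 of all probes), and became 4 with an offset of 16 (1407), 6 with the software's ratio (2396) and 5 with median centring (1516), while the 6 that were 2-fold lower (497) became 12 with the software's ratio (2106) and 1 with median centring (164). In these 2 settings the 2 lower at 24 h (1113) became 4 (1742) and 1 (887), the 0 higher in line 1 (41) became 1 (442) and 1 (258), and the 1 higher in line 2 (403) became 4 (1436) and 7 (1876). The cause was not tested. After seeing the data, members were also set against probes of similar brightness, which gave 29 higher at 10 h, and BIP1 was left out beside BIP2, which left 2 calls. No called result changed sign; the members' median in line 2, which was not tested, lay between -0.02 and 0.59. Low signal on the 2 h and overexpressor arrays limits what their ratios can show. No paired analysis was possible because each SA time has 1 array and no number is shared with the lines.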

Other observations

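P58IPK had net signals of 423, 37054, 65153 and 64454 in SA-treated plants at 2, 5, 10 and 24 h, against 313, 54846, 32041 and 35554 in untreated plants, and of 4370 and 1952 in lines 1 and 2, against 1401 and 1313 in vector controls. Both channels rose from 2 h to the later SA arrays by far more than the arrays' median signals did. The cause was not tested, and the time course of this probe is uncertain.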
